A study of Mus musculus with 8 samples.

Results

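The genes described here belong to cholesterol and fatty acid synthesis in TTE3 cells exposed to 0.2 mM bisphenol A (BPA), a chemical used to make plastics. TTE3 is an immortal line of Sertoli cells, the nurse cells of the seminiferous tubule, taken from mice with a large T antigen transgene of simian virus 40 that is active only at the permissive temperature. The genes were chosen by name, with earlier results of these data known, as a list of 36 genes. They were 18 enzymes of sterol synthesis, 5 regulators of the SREBP transcription factors, 9 enzymes of fatty acid synthesis and 4 genes of sterol transport. Each was read by 1 probe set, the one with the highest mean log2 signal among probe sets annotated with that symbol alone. This gave 34 genes of the 12393 in the series, and all 34 were above the filter on low signals. Acat2 and Insig1 were not analysed here.

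The groups were TTE3 cells at 0, 3, 6 and 12 h of BPA, with 8 one-colour Affymetrix arrays (Mouse Expression 430A) in all, 2 per time, numbered here as array 1 and 2 by their replicate number. The cells are 1 immortalized line, and every later array shares the 0 h arrays as its baseline. Arrays without BPA at 3, 6 and 12 h were not analysed here, so BPA and time in culture cannot be told apart. Whether both arrays of a time stand for separate cultures is not stated in the labels, so the p-values reflect a spread that may be technical. Values are the deposited signals of the probe sets, taken to be linear. Changes are differences of log2(signal + 7.9) with their standard error (SE), where the offset understates the change of dim genes. Genes were called at an adjusted p under 0.05 in a limma fit over 8675 genes. Levels of different genes were not compared, because each probe set has its own brightness.

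Median signals were between 150.5 and 169.6 on the 8 arrays, and Gapdh controls had 3' to 5' ratios of 0.713 to 0.82. Of all 12393 genes 8675 passed the filter on low signals. Of the Sertoli cell markers on the array 10 of 15 passed, a share near that of all genes. Gata4, Wt1, Clu and Kitl were among them, while Amh, Fshr, Cldn11, Gdnf and Dhh did not pass. Of the Leydig cell markers 1 of 4 passed (Star), of the germ cell markers 0 of 4, and of the macrophage markers 3 of 4, without Ptprc. Of the peritubular and fibroblast markers 5 of 6 passed, without Myh11. The summed signal of these 6 genes was 9605 and 9626 at 0 h, 7246 and 7508 at 3 h, 5679 and 6191 at 6 h, and 4449 and 5258 at 12 h, lower at each later time. This sum followed Dcn, its brightest gene, which averaged 8432, 6013, 5099 and 4290 at the 4 times. Without Dcn the sum of the means was 1183.9, 1363.6, 835.6 and 563.8, and Acta2 (66.95, 164.4, 122.3 and 68.05) and Pdgfra (33, 51.25, 66.7 and 62.25) were not lower at 12 h than at 0 h. Sertoli cell markers changed as well, in both directions. From 0 to 12 h the mean of Clu went from 7650 to 3409, Inhbb from 314.1 to 154 and Wt1 from 163.9 to 100.2. That of Sox9 went from 43.55 to 134.8 and Gata4 from 621.3 to 872.4. The part of any of these markers in the results was not tested.

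Cholesterol is built from acetyl-CoA through mevalonate, farnesyl diphosphate, squalene and lanosterol, and fatty acids are built from the same acetyl-CoA. The genes of both routes are classic targets of the SREBP transcription factors, which SCAP carries from the endoplasmic reticulum to the Golgi for cleavage when membrane sterol is low and which INSIG proteins hold back when it is high. The liver X receptors (LXR) drive sterol efflux genes such as Abca1 when oxysterols accumulate. Sertoli cells handle large amounts of lipid, since they engulf the residual bodies of spermatids.

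Most of the lipid genes rose during the exposure. At 3 h 18 of 34 were higher and none was lower, against 8.55% higher and 3.53% lower of all genes tested. At 6 h 22 were higher and 1 was lower, against 16.8% and 9.73% of all genes. At 12 h 22 were higher and 2 lower, against 20.9% and 17.5%. In either direction this was 18, 23 and 24 of 34, against 12.1%, 26.5% and 38.4% of all genes. The median log2 change of the 34 genes was 0.43, 0.76 and 0.61 at 3, 6 and 12 h, and that of all genes tested was 0.06, 0.07 and 0.06. Scaling the arrays to the same median signal moved the median of all genes at 3 h to -0.07, and under that scaling 15, 21 and 24 of the 34 were called. Rises of 2-fold or more were called in 4, 13 and 14 of the genes at the 3 times, against 2.44%, 4.45% and 5.66% of all genes. Falls of that size were called in 0, 1 and 1 (Abca1), against 0.334%, 1.48% and 5.22%. Over the whole course the moderated F test called 26 of 34, against 35.8% of all genes. Because the list was made with earlier results of these data known, these shares beside those of all genes are a description only.

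**Figure D1:**
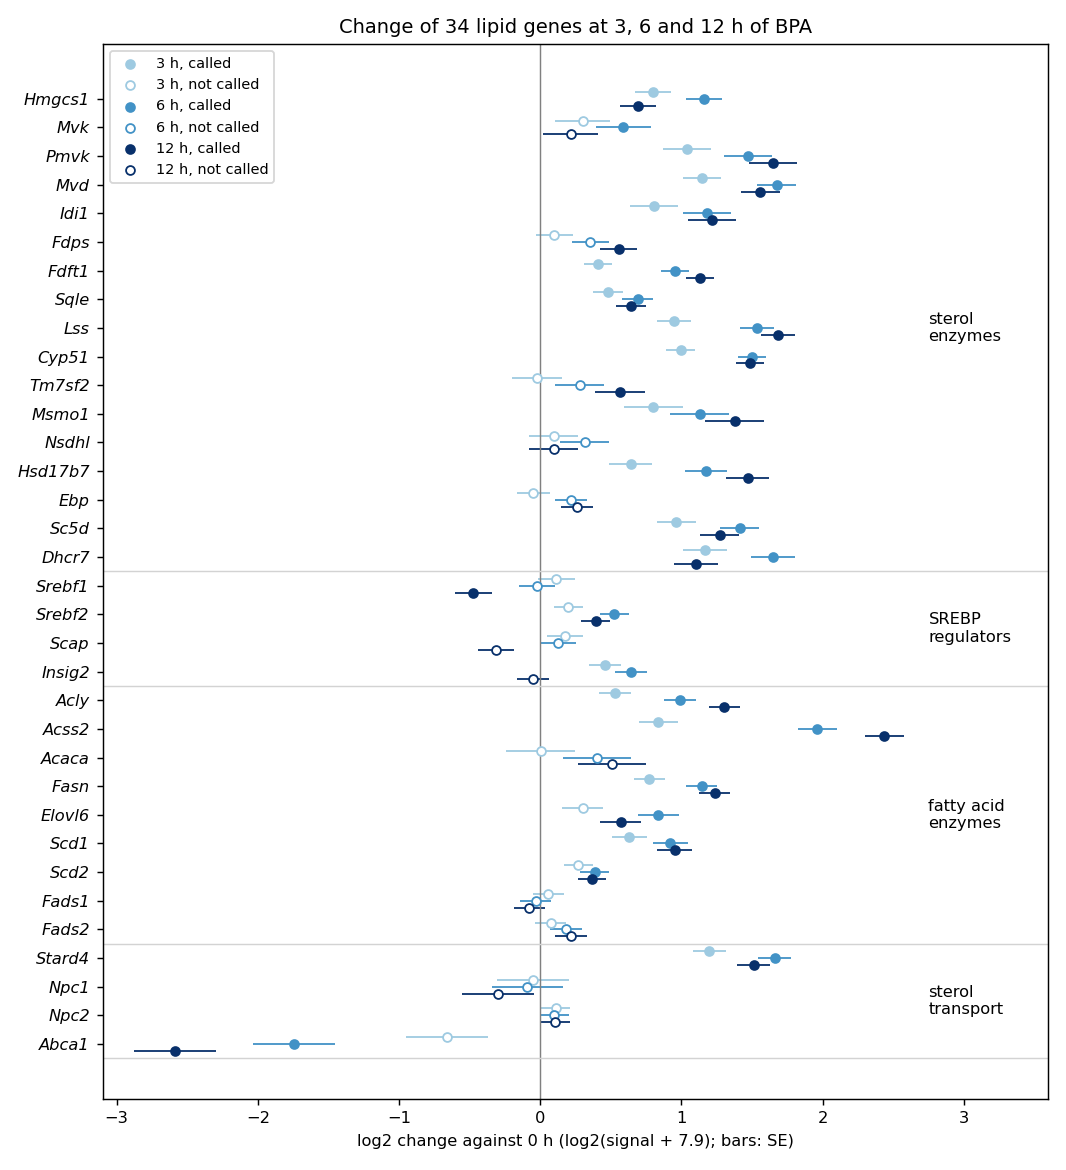
Log2 change of each of the 34 genes against 0 h at 3, 6 and 12 h (x axis, log2(signal + 7.9)), with genes down the page in pathway order and bars of 1 SE. Filled points were called and open points were not. Most sterol and fatty acid enzymes lie right of 0 at every time, Abca1 lies furthest left, and Insig2 returns to near 0 at 12 h.

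In 17 genes the call was higher at all of 3, 6 and 12 h, and these were 12 sterol enzymes, 4 fatty acid enzymes and Stard4. Of the 18 calls at 3 h, 9 were made under all 18 alternatives tried (Hmgcs1, Pmvk, Mvd, Lss, Cyp51, Dhcr7, Acss2, Fasn and Stard4). The same held for 19 of 23 calls at 6 h and 16 of 24 at 12 h, with Abca1 left out of both because the 50th percentile filter removed it. The 3 h count rested on all 4 arrays: it was 10 and 13 without 0 h array 1 or 2, and 13 and 11 without 3 h array 1 or 2. The 3 h calls of Idi1, Hsd17b7 and Scd1 were lost without 0 h array 1 (adjusted p = 0.105, 0.165 and 0.0771), and those of Idi1 and Hsd17b7 also without 3 h array 2 (0.0591 and 0.135). At 6 h array 1 was the brighter array in 27 of the 34 genes, against 55.6% of all genes tested. Without it 22 of the genes were called at 6 h.

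The promoters show what DNA the genes that moved together carry ahead of their starts. RefSeq (GRCm38.p6) gave windows of the 250 bases before the start for 26 of the 34 genes. Searched on both strands were the sterol regulatory element TCACNCCAC, the CCAAT box bound by NF-Y, the E-box CACGTG and the GC box GGGCGG. Hmgcs1 is shown as the single gene with the sterol element, Lss, Acss2 and Fasn as genes that rose, and Abca1 as the gene called lower at 6 h. All are written 5′ to 3′ on the gene's strand, with every match to any of the 4 motifs in capitals.
Hmgcs1, chr13:119690101-119690350, + strand: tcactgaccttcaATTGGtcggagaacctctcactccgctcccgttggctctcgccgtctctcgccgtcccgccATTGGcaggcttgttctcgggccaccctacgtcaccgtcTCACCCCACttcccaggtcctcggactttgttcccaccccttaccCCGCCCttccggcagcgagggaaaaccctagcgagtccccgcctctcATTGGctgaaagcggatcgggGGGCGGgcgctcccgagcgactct
Lss, chr10:76531355-76531604, + strand: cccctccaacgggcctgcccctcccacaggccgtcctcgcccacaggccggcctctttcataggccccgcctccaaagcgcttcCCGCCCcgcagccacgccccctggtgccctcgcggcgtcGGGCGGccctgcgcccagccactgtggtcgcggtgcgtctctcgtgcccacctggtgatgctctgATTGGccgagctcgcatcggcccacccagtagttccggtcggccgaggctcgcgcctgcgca
Acss2, chr2:155517793-155518042, + strand: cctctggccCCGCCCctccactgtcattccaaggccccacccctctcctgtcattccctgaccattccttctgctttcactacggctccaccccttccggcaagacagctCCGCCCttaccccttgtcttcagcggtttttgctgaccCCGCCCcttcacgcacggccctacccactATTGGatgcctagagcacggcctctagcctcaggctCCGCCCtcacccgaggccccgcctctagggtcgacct
Fasn, chr11:120824548-120824797, - strand: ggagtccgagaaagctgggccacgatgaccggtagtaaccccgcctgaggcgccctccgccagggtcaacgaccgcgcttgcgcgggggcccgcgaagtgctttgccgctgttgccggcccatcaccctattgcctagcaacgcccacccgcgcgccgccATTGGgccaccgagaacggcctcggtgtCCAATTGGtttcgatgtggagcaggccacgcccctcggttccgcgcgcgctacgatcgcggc
Abca1, chr4:53159896-53160145, - strand: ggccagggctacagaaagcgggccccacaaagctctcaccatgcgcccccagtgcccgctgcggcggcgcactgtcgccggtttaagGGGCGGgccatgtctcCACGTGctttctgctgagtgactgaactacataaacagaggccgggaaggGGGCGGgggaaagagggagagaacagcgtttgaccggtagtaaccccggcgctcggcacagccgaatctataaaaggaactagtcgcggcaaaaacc

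In Hmgcs1 the sterol element begins at position -137 from the start, among 3 CCAAT boxes, all in the reverse direction (ATTGG). Lss and Acss2 hold 1 CCAAT box each and Fasn 3, of which a forward and a reverse one share bases. Abca1 holds 1 E-box and 2 GC boxes and no CCAAT box. Srebf1, which was called lower at 12 h alone, does hold a CCAAT box. A CCAAT box stood in 20 of the 26 genes, against 39.9% of 9887 genes on the array, the GC box in 22, against 57.0%, and the E-box in 5, against 9.19%. The sterol element in this strict spelling stood in 1 of 26, against 1.29%. The CCAAT box was in 88.2% of 17 genes higher at 6 h and 62.5% of 8 not called, while the GC box was in 82.4% and 87.5% and the E-box in 17.6% and 12.5% of them. These are matches of letters, not sites shown to be bound, and genes with several starts were counted once if any window held a match.

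The first enzymes of the sterol route lead from acetoacetyl-CoA to farnesyl diphosphate. Of 6 measured, 4, 5 and 5 rose at 3, 6 and 12 h, at median log2 changes of 0.80, 1.17 and 0.96. Hmgcs1 encodes the cytosolic HMG-CoA synthase, which commits acetyl-CoA to the mevalonate route. Its signals were 7841 and 8145 at 0 h, 12948 and 14934 at 3 h, 20005 and 15962 at 6 h, and 13530 and 12339 at 12 h. Every treated array was above both 0 h arrays, and the 12 h arrays lay below both 6 h arrays. The log2 change of Hmgcs1 against 0 h was 1.16 ± 0.13 at 6 h (adjusted p = 2.75e-05) and 0.69 ± 0.13 at 12 h. The difference between 12 and 6 h was -0.47 ± 0.13 (adjusted p = 0.0541). Another probe set of Hmgcs1 was called at 3, 6 and 12 h (0.77, 1.09 and 0.72). A further one was not called at 3 h (0.56, 0.62 and 0.53), and the last was called only at 6 h (0.29, 0.50 and 0.26).

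Mvd encodes the decarboxylase that makes isopentenyl diphosphate. Its signals were 662 and 679.7 at 0 h, 1557 and 1436 at 3 h, 2491 and 1873 at 6 h, and 1885 and 2105 at 12 h. The arrays at 0 h lay apart from all later ones. Mvd rose by 1.68 ± 0.14 at 6 h (3.19-fold, adjusted p = 1.8e-06), although its probe set is of a kind (_s_at) that can bind several transcripts. Pmvk, the phosphomevalonate kinase gene, had signals of 442 and 307 at 0 h, 747 and 784 at 3 h, 1173 and 917 at 6 h, and 1147 and 1198 at 12 h. It rose by 1.47 ± 0.17 at 6 h and 1.65 ± 0.17 at 12 h. Idi1, which encodes isopentenyl diphosphate isomerase, rose by 1.18 ± 0.17 at 6 h, where its arrays read 4877 and 7539, against 2384 and 2981 at 0 h.

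Mvk and Fdps were each called at 1 time. Mvk, mevalonate kinase, had a 6 h change of 0.59 ± 0.20 (adjusted p = 0.0401), from arrays at 1428 and 969, against 832 and 731 at 0 h. That call was lost without 6 h array 1 (change 0.31, adjusted p = 0.31), on leaving out 0 h array 1 or 2 (adjusted p = 0.0927 and 0.219), and under same-median scaling (0.102). A further probe set of Mvk had 0.28 at 6 h (adjusted p = 0.314) and 0.51 at 12 h (adjusted p = 0.0479). Fdps, farnesyl diphosphate synthase, was called only at 12 h, by 0.56 ± 0.13, with arrays at 11751 and 8981, against 7193 and 6785 at 0 h. Without the higher of these, 12 h array 1, its change was 0.36 (adjusted p = 0.0611), and over the mean of all its probe sets it was 0.47 (0.0694).

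From squalene to cholesterol 8, 8 and 9 of 11 measured enzymes rose at 3, 6 and 12 h and none fell. Their median log2 changes were 0.64, 1.13 and 1.13. Lss, the lanosterol synthase gene, had signals of 1206 and 1116 at 0 h, 2294 and 2208 at 3 h, 3464 and 3292 at 6 h, and 4168 and 3357 at 12 h. It rose by 1.53 ± 0.12 at 6 h and 1.68 ± 0.12 at 12 h (adjusted p = 3.61e-07), also on an _s_at probe set. Cyp51 encodes the lanosterol demethylase. Its pairs of arrays lay close together, at 3522 and 3502 at 0 h, 7012 and 6995 at 3 h, 9691 and 10195 at 6 h, and 9566 and 10183 at 12 h. The groups at 0, 3 and 6 h did not overlap, and the ranges at 6 and 12 h did. Cyp51 rose by 0.99 ± 0.10, 1.50 ± 0.10 and 1.49 ± 0.10 at the 3 times. Another probe set of Cyp51 rose less, by 0.67, 0.88 and 0.77. A further, dimmer one rose by 0.94, 1.43 and 1.58, and both were called at each time.

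Dhcr7 encodes the reductase of the last step to cholesterol. Its signals were 668 and 568 at 0 h, 1277 and 1518 at 3 h, 2286 and 1657 at 6 h, and 1347 and 1320 at 12 h. The 6 h arrays were the highest and the 12 h arrays were back in the range of 3 h. Dhcr7 rose by 1.65 ± 0.16 at 6 h and 1.11 ± 0.16 at 12 h, with a difference between 12 and 6 h of -0.54 ± 0.16 (adjusted p = 0.0634). Sc5d, a sterol desaturase gene, had 2189 and 2165 at 0 h, 4528 and 4004 at 3 h, 6800 and 4977 at 6 h, and 5495 and 5050 at 12 h. It rose by 1.41 ± 0.14 at 6 h and 1.27 ± 0.14 at 12 h. Its second, dimmer probe set went the other way at 12 h (-1.08, adjusted p = 0.0195), and the mean of both was 0.10 (adjusted p = 0.728).

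Hsd17b7, a sterol ketoreductase gene, rose by 1.17 ± 0.15 and 1.47 ± 0.15 at 6 and 12 h, its arrays climbing from pair to pair without overlap (422 and 525 at 0 h, 671 and 812 at 3 h, 979 and 1174 at 6 h, 1241 and 1397 at 12 h). Fdft1, squalene synthase, rose by 0.96 ± 0.10 and 1.13 ± 0.10, and Sqle, squalene epoxidase, by 0.69 ± 0.11 and 0.64 ± 0.11. Their 3 h calls (0.41 and 0.48) were lost on leaving out each of the 4 arrays at 0 and 3 h, at adjusted p up to 0.134 for Fdft1 and 0.111 for Sqle. Fdft1 was read by an _x_at probe set, and over the mean of all its probe sets the 3 h change was 0.25 (adjusted p = 0.344). Msmo1, a methylsterol monooxygenase gene, rose by 1.13 ± 0.21 at 6 h and 1.38 ± 0.21 at 12 h, although its 12 h arrays differed widely (8591 and 16196). Its 3 h call was lost on leaving out each of the 4 arrays at 0 and 3 h (adjusted p up to 0.173).

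Among the other enzymes of this stretch, Tm7sf2, a sterol reductase gene, had a 12 h change of 0.57 ± 0.18 (adjusted p = 0.021), lost on leaving out array 1 of either 0 h or 12 h (adjusted p = 0.145 and 0.184). Nsdhl and Ebp, a sterol dehydrogenase and a sterol isomerase gene, were called at no time. Nsdhl read 3056 and 1950 at 6 h, against 1912 and 2013 at 0 h, so that 1 array alone was high. Without the other, 6 h array 2, its change was 0.64 (adjusted p = 0.00648). Ebp had changes of 0.22 ± 0.11 at 6 h and 0.26 ± 0.11 at 12 h (adjusted p = 0.191 and 0.0901).

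**Figure D2:**
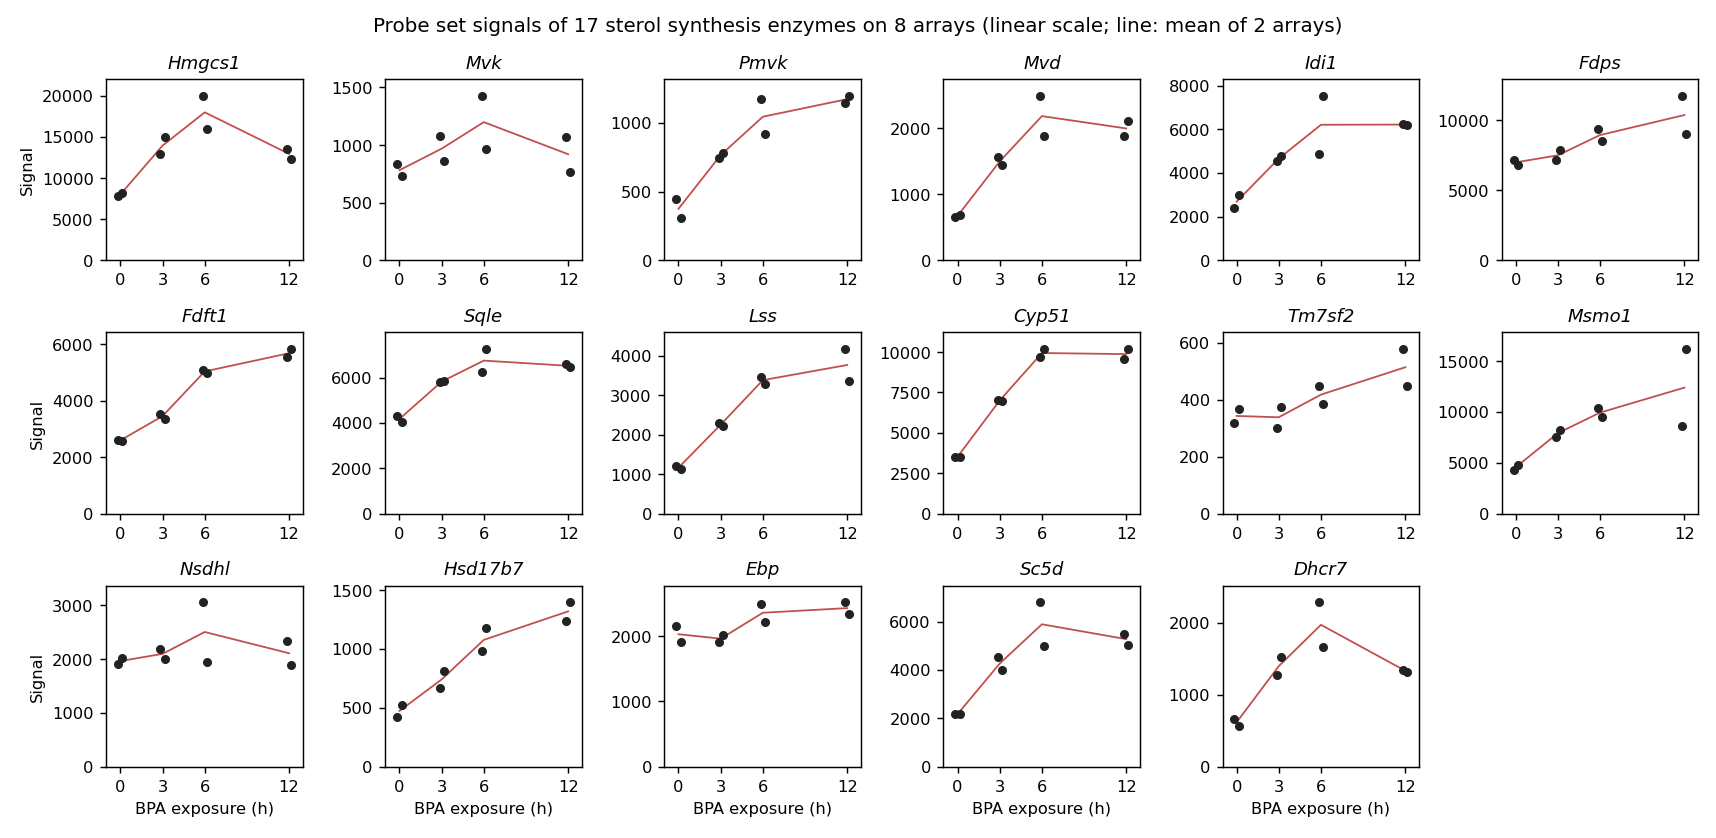
Probe set signal (y axis, linear scale from 0) against BPA exposure (x axis, h) for the 17 measured sterol enzymes in pathway order. Points are single arrays, 2 at each time, and the line joins the means. The Cyp51 arrays stand at 3522 and 3502 at 0 h, 7012 and 6995 at 3 h, 9691 and 10195 at 6 h and 9566 and 10183 at 12 h, while the arrays of Nsdhl and Ebp overlap between 3 and 0 h.

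Among fatty acid enzymes 4, 6 and 6 of 9 rose at 3, 6 and 12 h, and among sterol enzymes 12, 13 and 14 of 17. The sets differ in size, and the difference in share was not tested. The medians of the fatty acid enzymes were 0.30, 0.84 and 0.57, and those of the sterol enzymes 0.80, 1.16 and 1.13. Acss2 makes acetyl-CoA from acetate. Its signals were 212 and 213 at 0 h, 407 and 365 at 3 h, 904 and 801 at 6 h, and 1266 and 1115 at 12 h, with no overlap between times. It rose by 0.83 ± 0.14, 1.96 ± 0.14 and 2.44 ± 0.14 (5.42-fold at 12 h, adjusted p = 4.41e-08), the largest rise among the 34 genes at 6 and at 12 h.

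Acly, the ATP citrate lyase gene, supplies cytosolic acetyl-CoA from citrate. Its signals were 6272 and 6512 at 0 h, 9256 and 9208 at 3 h, 13519 and 11968 at 6 h, and 17058 and 14647 at 12 h. They climbed from each time to the next without overlap. Acly rose by 0.53 ± 0.11 at 3 h, 0.99 ± 0.11 at 6 h and 1.31 ± 0.11 at 12 h. The 3 h call was lost on leaving out each of the 4 arrays at 0 and 3 h (adjusted p up to 0.0829). Fasn, the fatty acid synthase gene, had 3555 and 3584 at 0 h, 6395 and 5825 at 3 h, 8002 and 7798 at 6 h, and 9100 and 7791 at 12 h. It rose by 1.14 ± 0.11 at 6 h and 1.24 ± 0.11 at 12 h.

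Acaca, the acetyl-CoA carboxylase gene between these steps, was not called. Its arrays at 6 and 0 h overlapped, at 316 and 204 at 6 h, against 167 and 217 at 0 h (0.40 ± 0.24, adjusted p = 0.251). Of the enzymes that modify the fatty acid chain, the elongase gene Elovl6 rose by 0.84 ± 0.15 at 6 h and 0.57 ± 0.15 at 12 h. Its 12 h call was lost on leaving out array 1 of either 0 h or 12 h (adjusted p = 0.0737 and 0.0886). The stearoyl-CoA desaturase gene Scd1 rose by 0.92 ± 0.12 and 0.95 ± 0.12 at 6 and 12 h, and its relative Scd2 by 0.39 ± 0.10 and 0.37 ± 0.10. The Scd2 calls were lost without 0 h array 2 (adjusted p = 0.116 at 6 h and 0.101 at 12 h), the 12 h call without 12 h array 1 (0.0529), and the 6 h call under same-median scaling (0.0835). Fads1 and Fads2, desaturases of polyunsaturated fatty acids, were called at no time, with changes between -0.08 and 0.22.

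**Figure D3:**
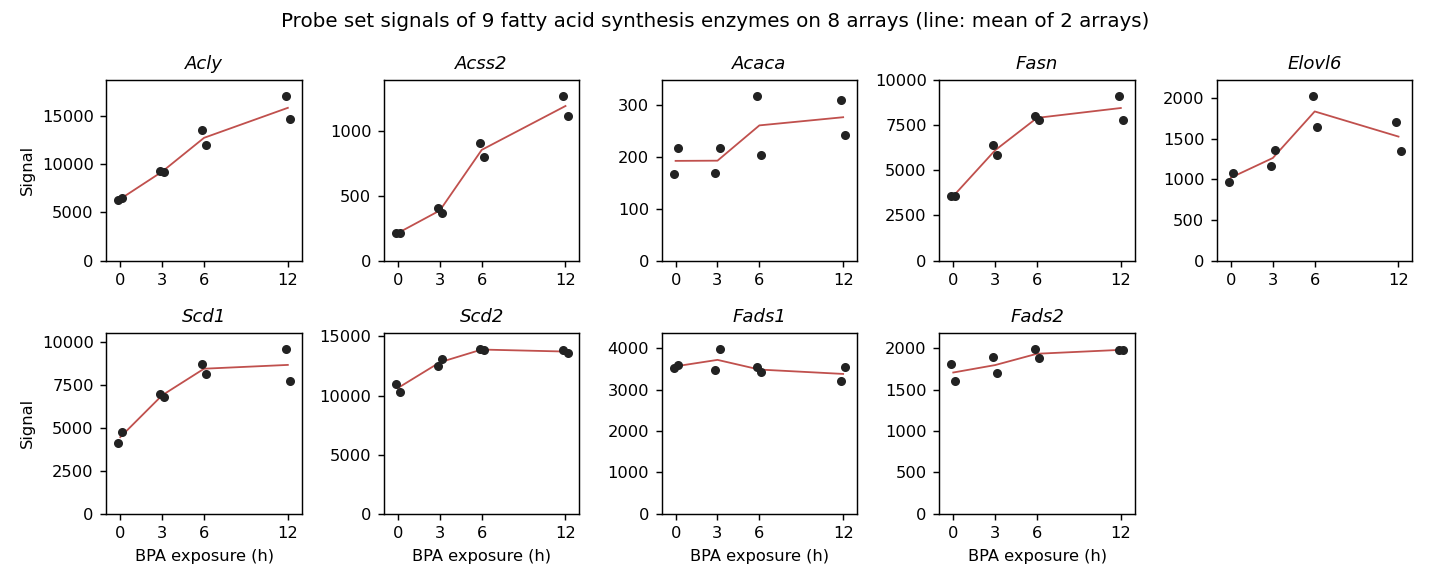
Probe set signal (y axis, linear scale from 0) against BPA exposure (x axis, h) for the 9 fatty acid enzymes. Points are single arrays and the line joins the means of 2. Acss2 and Acly climb through 12 h, and Fads1 stays between 3206 and 3979.

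Of the 4 measured SREBP regulators 1, 2 and 1 rose and 0, 0 and 1 fell at 3, 6 and 12 h, at median log2 changes of 0.19, 0.33 and -0.18. Srebf2 encodes SREBP-2, the main activator of sterol genes. Its signals were 1544 and 1548 at 0 h, 1765 and 1786 at 3 h, 2304 and 2154 at 6 h, and 2078 and 1990 at 12 h. All later arrays were above both 0 h arrays. Srebf2 rose by 0.52 ± 0.10 at 6 h (adjusted p = 0.0024) and 0.39 ± 0.10 at 12 h. The 12 h call was lost without 0 h array 1 or 2 or 12 h array 1 (adjusted p = 0.0564, 0.0558 and 0.0567). Its other probe set had -0.08 and -0.19, not called, and over the mean of both the changes were 0.22 and 0.10 (adjusted p = 0.197 and 0.558).

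Srebf1 encodes SREBP-1, which acts more on fatty acid genes. Its signals were 2039 and 2533 at 0 h, 2571 and 2357 at 3 h, 2440 and 2051 at 6 h, and 1689 and 1583 at 12 h. Only the 12 h arrays lay below both 0 h arrays. Srebf1 fell by 0.47 ± 0.13 at 12 h (adjusted p = 0.0115), and this call was lost on leaving out array 2 of either 0 h or 12 h (adjusted p = 0.159 and 0.0666). Scap, the escort of the SREBP proteins, had signals of 1598 and 1612 at 0 h, 1983 and 1655 at 3 h, 1726 and 1779 at 6 h, and 1168 and 1425 at 12 h. It was not called against 0 h at 12 h (-0.31 ± 0.13, adjusted p = 0.0709), and it was lower at 12 h than at 3 h (-0.49 ± 0.13, adjusted p = 0.0162). Without 12 h array 2 the change of Scap against 0 h was -0.46 (adjusted p = 0.0319). The step from 3 h was lost on leaving out array 1 of either 3 h or 12 h (adjusted p = 0.156 and 0.145).

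Insig2, which encodes a protein that retains SCAP in the endoplasmic reticulum, rose at 3 and 6 h. Its signals were 1792 and 1702 at 0 h, 2423 and 2375 at 3 h, 2993 and 2506 at 6 h, and 1670 and 1698 at 12 h. The 3 and 6 h arrays lay above both 0 h arrays, and the 12 h arrays lay below them. Insig2 rose by 0.65 ± 0.11 at 6 h (adjusted p = 0.00103), and its change at 12 h was -0.05 ± 0.11. The difference between 12 and 6 h was -0.70 ± 0.11 (adjusted p = 0.00409, and 0.0623 without the intensity trend). Its 3 h call (0.46) was lost on leaving out each of the 4 arrays at 0 and 3 h (adjusted p up to 0.146) and under same-median scaling (0.0958). Of the other probe sets of Insig2, 1 was called higher at 12 h (0.36, adjusted p = 0.0437), so the probe sets of Insig2 differed at 12 h.

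Of the 4 sterol transport genes 1 rose at each time (Stard4) and 1 fell at 6 and 12 h (Abca1), at medians of 0.03, 0.01 and -0.10. Stard4 encodes a cytosolic sterol carrier and is a known SREBP target. Its signals were 1010 and 1082 at 0 h, 2520 and 2301 at 3 h, 3035 and 3641 at 6 h, and 2926 and 3071 at 12 h. No later array overlapped with 0 h. Stard4 rose by 1.20 ± 0.12, 1.66 ± 0.12 and 1.51 ± 0.12 at the 3 times (adjusted p = 1.71e-05, 4.19e-07 and 8.25e-07), and its 3 h change was the largest of the 34 genes.

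Abca1 encodes the transporter that loads cellular cholesterol onto apolipoproteins, and it went the opposite way. Its signals were 261 and 281 at 0 h, 131 and 215 at 3 h, 76.3 and 74.2 at 6 h, and 38.1 and 38.7 at 12 h. The arrays were lower at each later time, without overlap. Abca1 fell by 1.74 ± 0.29 at 6 h (adjusted p = 0.000733) and fell by 2.59 ± 0.29 at 12 h (adjusted p = 1.74e-05), while its 3 h change of -0.66 ± 0.29 was not called. Both falls were called under every alternative that kept the gene, and the 50th percentile filter removed it as too dim. A second probe set had -0.89 at 6 h and -0.68 at 12 h, not called (adjusted p = 0.0635 and 0.119), and over the mean of all probe sets Abca1 fell by 1.23 and 1.69. Npc1 and Npc2, which move cholesterol out of the lysosome, were called at no time. Npc2 stayed between 6833 and 7870 on all 8 arrays, and Npc1 between 122 and 211.

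**Figure D4:**
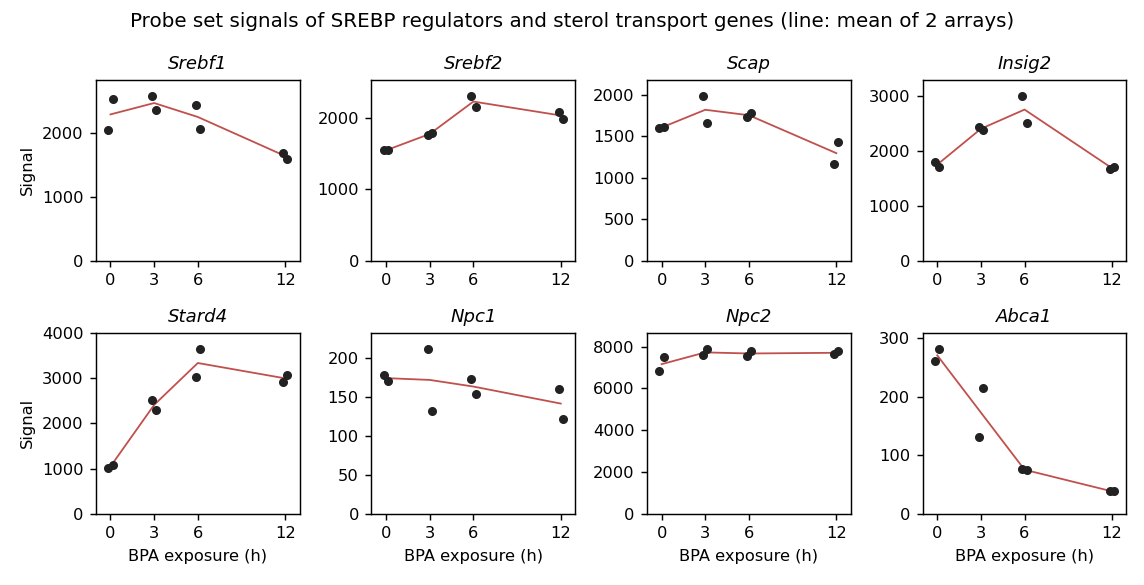
Probe set signal (y axis, linear scale from 0) against BPA exposure (x axis, h) for 4 SREBP regulators (top) and 4 sterol transport genes (bottom). Points are single arrays and the line joins the means of 2. Insig2 peaks at 6 h and is back at 1670 and 1698 at 12 h, and Abca1 drops to 38.1 and 38.7 at 12 h, against 261 and 281 at 0 h.

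Of 24 genes called higher at any time, 12 had their highest mean of 2 arrays at 6 h and 12 at 12 h. This is a description with no test, and the means of some genes, such as Idi1 and Cyp51, were nearly equal at both times. Between 3 and 6 h 4 of 34 genes rose (Fdft1, Lss, Cyp51 and Acss2) and none fell, against 0.565% and 0.553% of all genes (1.12% in either direction). Acss2 had the largest of these steps, 1.13 ± 0.14 (adjusted p = 0.00163, and 0.058 without the intensity trend). The steps of Fdft1, Lss and Cyp51 (0.54, 0.58 and 0.50) were lost when only the 2 times compared were fitted (adjusted p = 0.0686, 0.0578 and 0.0944). They were also lost without either array at 0 h or at 3 h, and without 6 h array 1 (changes of 0.53, 0.55 and 0.54). Those of Lss and Cyp51 were lost without 6 h array 2 as well (0.62 and 0.47).

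Between 6 and 12 h Insig2 alone of the 34 was called, lower, against 3.85% of all genes lower and 0.922% higher (4.77% together), so this share was near the background. The count was 5 without 6 h array 2, 2 without 12 h array 1 and 2 without 12 h array 2. Between 3 and 12 h 11 of 34 were higher and 4 lower, against 9.52% and 12.4% of all genes (21.9% together). The 4 lower ones were Srebf1, Scap, Insig2 and Abca1, a share near the 12.4% of all genes. They include 3 of 4 measured regulators and the efflux transporter, a grouping that was not tested. This comparison was added after the data were seen. Without 3 h array 1 the count was 7 higher and 1 lower, and the steps of Srebf1 and Insig2 were then at adjusted p = 0.0612 and 0.0512.

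Other genes of lipid handling were listed by role, also with earlier results of these data known. Their median changes at 6 h stand against 0.07 for all genes tested. Their counts stand against 8.55%, 16.8% and 20.9% of all genes higher and 3.53%, 9.73% and 17.5% lower at 3, 6 and 12 h. Genes described here for a call at 12 h alone (Mbtps1, Sec24c, Mylip, Stard5 and Lrpap1) were named after their values were seen. Elovl7 (1.31), Dgat2 (0.69) and Sec23a (-0.44) were also called at 12 h alone, and Fads3 at 3 h alone (-0.61). None of these further calls was made under every alternative. Of 14 further genes of fatty acid and lipid synthesis, 1 was higher and 1 lower at 3 h, 4 and 0 at 6 h, and 6 and 0 at 12 h (median 0.01 at 6 h). Of these calls 1 and 0, 2 and 0, and 4 and 0 were made under every alternative. Lpin1 encodes lipin-1, a phosphatidate phosphatase and coactivator. Its signals were 460.0 and 407 at 0 h, 1117 and 1456 at 3 h, 1968 and 2141 at 6 h, and 1208 and 1240.5 at 12 h. All later arrays were above the 0 h arrays and the 6 h pair was highest. Lpin1 rose by 1.54 ± 0.14, 2.23 ± 0.14 and 1.48 ± 0.14. The elongase gene Elovl5 rose by 0.57 ± 0.11 at 6 h and 0.74 ± 0.11 at 12 h. At 12 h Mid1ip1, a partner of acetyl-CoA carboxylase, and Hsd17b12, a ketoacyl reductase gene of chain elongation, rose by 0.59 and 0.45. Both 12 h calls were made under every alternative. Their 6 h changes were 0.41 and 0.40, and the 6 h calls were lost under same-median scaling (adjusted p = 0.0773 and 0.0628). Without 0 h array 2 or 6 h array 2 Mid1ip1 was at adjusted p = 0.134 and 0.0587, and without 0 h array 1 Hsd17b12 was at 0.114.

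Of 8 tested genes of fatty acid oxidation none rose, and 0, 3 and 3 fell at 3, 6 and 12 h (median -0.24 at 6 h), of which 0 at 6 h and 2 at 12 h were made under every alternative. Cpt1a, which encodes the carnitine palmitoyltransferase of the outer mitochondrial membrane, read 1319 and 1395 at 6 h and 976 and 1162 at 12 h, against 1872 and 2303 at 0 h. It fell by 0.61 ± 0.13 and 0.96 ± 0.13. The 6 h call of Cpt1a was lost without 0 h array 2 (adjusted p = 0.0664). Cpt2, its partner of the inner membrane, fell by 1.28 ± 0.21 at 12 h. Its 6 h change of -0.68 was not called without 0 h array 1 or 2 or 6 h array 2 (adjusted p = 0.217, 0.0533 and 0.215), and was -0.40 in the last case and -0.30 over the mean of all its probe sets. Hadhb, a subunit of the trifunctional protein of oxidation, fell by 0.45 ± 0.12 at 6 h and 0.44 ± 0.12 at 12 h, with both calls lost without 0 h array 1 (adjusted p = 0.127 and 0.0975), the 6 h one also without 6 h array 2 (0.0687).

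Of 7 genes for SREBP cleavage, export and reductase decay none rose, and 0, 1 and 4 fell (median -0.30 at 6 h), of which 1 at 12 h was made under every alternative (Sec24c, a coat protein gene of export vesicles, -0.88). The 1 at 6 h was Vcp, the ATPase that extracts proteins from the endoplasmic reticulum (-0.37 ± 0.10), a call lost without 0 h array 1, 0 h array 2 or 6 h array 1 (adjusted p = 0.155, 0.0539 and 0.0592). Mbtps1, the site-1 protease gene that cuts SREBP proteins, read 682 and 875 at 12 h, against 1497 and 1556 at 0 h, and fell by 0.97 ± 0.13 (adjusted p = 8.07e-05; -0.42 over the mean of all its probe sets, adjusted p = 0.0683).

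Of 7 LXR and efflux genes 0, 1 and 2 rose and none fell (median 0.31 at 6 h), a share at 6 h near the 16.8% of all genes. Lpcat3, a phospholipid acyltransferase gene and known LXR target, rose by 0.76 ± 0.12 at 6 h. The 2 calls at 12 h were Lpcat3 (0.43) and Mylip, the gene of a ligase that degrades lipoprotein receptors (0.85, adjusted p = 0.0499). Neither was called without 0 h array 1 (adjusted p = 0.109 for Lpcat3 and 0.175 for Mylip) or without 12 h array 1 (0.0772 and 0.132). Of 8 genes of sterol storage, oxysterols and lysosomal sterol, 0, 3 and 3 rose and 1 fell at each time (median 0.21 at 6 h). Of the rises 2 at 6 h and 1 at 12 h (Stard5, a sterol-binding protein gene, 0.70) were made under every alternative, and 1 of 3 was kept at 12 h without 12 h array 1. Gramd1a, a sterol transfer protein gene of contacts with the plasma membrane, rose by 1.10 ± 0.22 at 6 h, and Stard3, a late endosomal sterol transfer protein gene, by 0.75 ± 0.17. Hsd3b7, an enzyme gene of bile acid synthesis from oxysterols, had 0.44 ± 0.14, a call lost under same-median scaling (adjusted p = 0.09) and without 0 h array 1 or 2 or 6 h array 2 (0.215, 0.0524 and 0.14). The fall was that of Cav1, the caveolin-1 gene, by 0.83 ± 0.13 at 6 h, with arrays at 463 and 482, against 837 and 859 at 0 h. Its 3 h call (-0.51) was lost on leaving out each of the 4 arrays at 0 and 3 h (adjusted p up to 0.166).

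Of 5 genes of uptake and isoprenoid supply 0, 2 and 2 rose and 0, 1 and 1 fell (median 0.10 at 6 h). The fall was that of Lrp1, a lipoprotein and protease receptor gene, by 0.67 ± 0.17 at 6 h and 1.24 ± 0.17 at 12 h. The 6 h call of Lrp1 was lost without 0 h array 1 or 2 or 6 h array 1 (adjusted p = 0.0689, 0.0601 and 0.0907). Ggps1, geranylgeranyl diphosphate synthase, and Vldlr, the receptor of very low density lipoprotein, had 6 h changes of 0.43 each. Both calls were lost under same-median scaling (adjusted p = 0.113 and 0.11). Vldlr had 0.30 without 0 h array 1 and 0.25 without 6 h array 2, neither called, and Ggps1 was not called on leaving out each of the 4 arrays at 0 and 6 h (adjusted p up to 0.194). Over the mean of all probe sets the 6 h changes were 0.13 for Ggps1 and 0.17 for Vldlr, not called. The rises at 12 h were those of Ggps1 (0.46) and Lrpap1, a chaperone gene of lipoprotein receptors (0.36). Neither was called without 0 h array 1 (adjusted p = 0.121 for Ggps1 and 0.1 for Lrpap1), without 12 h array 1 (0.0603 and 0.112) or without 12 h array 2 (0.0734 and 0.0608), and over the mean of all probe sets they had -0.077 and 0.12.

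**Figure D5:**
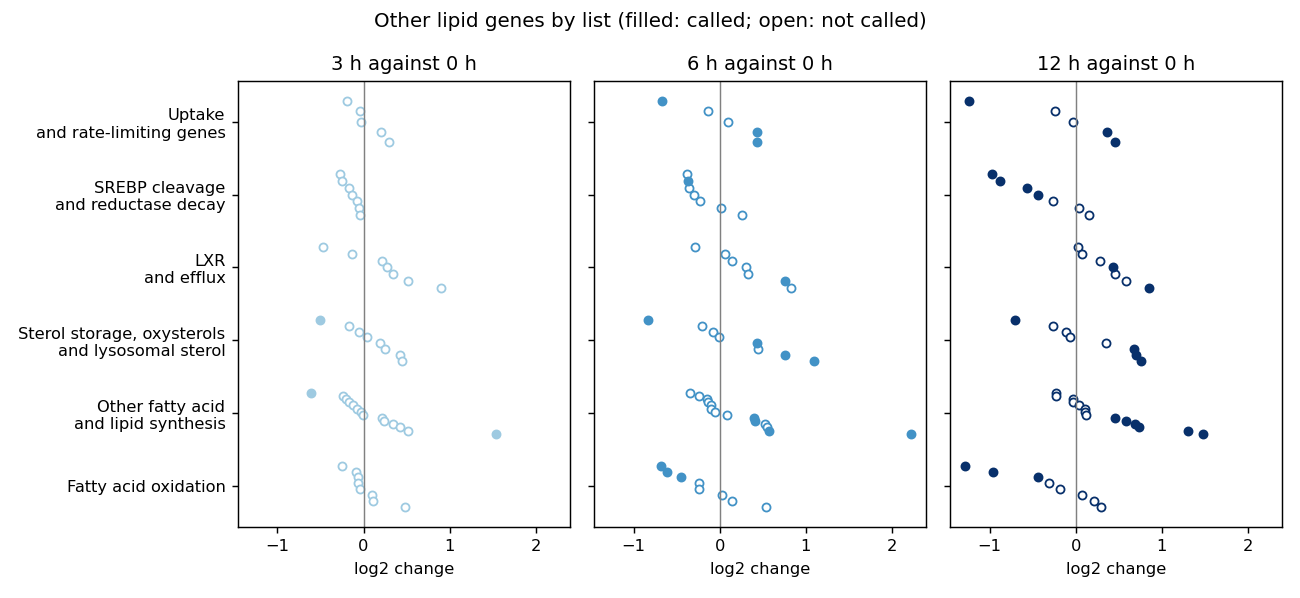
Log2 change against 0 h (x axis) of other lipid genes in 6 lists (rows), at 3, 6 and 12 h (panels). Each point is 1 gene, filled where called. Lpin1 is the point furthest right at 6 h (2.23), and the fatty acid oxidation row has no filled point right of 0.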

How the data were processed

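Total RNA of TTE3 cells was measured on 8 arrays, 2 at each of 0, 3, 6 and 12 h. The authors deposited 1 intensity per probe set, taken here to be on a linear scale. Their scanner software and summary method are not stated in the labels or headers. The deposited intensities had trimmed means (2% off each end) of 500.16 to 500.18 on every array and were used as given. Of 22690 probe sets, 20380 had 1 gene symbol, 691 several and 1555 none, and 64 were controls. Symbols were updated through Entrez IDs to the RefSeq table of GRCm38.p6 (20351 updated or matched, 29 kept).

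Each gene took its probe set of highest mean log2 signal, and genes above the 30th percentile of mean signal were tested (8675 tested, 3718 removed). An offset of 7.9, the 10th percentile of all values, was added before log2. Times were compared with limma 3.58.1 in R 4.3.3 (1 mean per time, eBayes with intensity trend, two-sided, Benjamini-Hochberg over the 8675 genes), with 4 residual degrees of freedom. Other probe sets of a gene were tested in a separate fit over all probe sets with 1 symbol. The fit was tested on simulated data.

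Alternatives were another scaling, offset, filter, probe set rule and model, a replicate block and each array left out. The comparison of 12 h with 3 h and the alternatives for other lipid genes were added after seeing the data. Members and gene lists were chosen with earlier results of these data known. All members are named, and of each other list up to 4 called genes with the largest change at 6 h. Genes called only at another time were named after their values were seen. The small number of arrays limits the precision.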

Additional observations from a re-analysis of the deposited data

Results flagged for a closer look

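Between 3 and 6 h, the changes of 4 genes relative to 0 h differed by the limma test of 6 h against 3 h. The step was 0.54 for Fdft1 (adjusted p = 0.0184), 0.58 for Lss (0.0326), 0.50 for Cyp51 (0.0279) and 1.13 for Acss2 (0.00163). All were positive. For each of these 4 genes both 6 h arrays were above both 3 h arrays, which adds no support because the same arrays gave the test. The number of these steps called under every alternative was 0. Insig2 differed between 12 and 6 h, by -0.70 (adjusted p = 0.00409). Both 12 h arrays lay below both 6 h arrays, which again are the arrays of the test. This step of Insig2 was not called under every alternative. A second probe set of Sc5d, not used for the gene's value, was lower at 12 h than at 0 h (-1.08, adjusted p = 0.0195), at a mean signal of 140.6, while the probe set used was higher (1.27) at a mean signal of 4401.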

How the results depend on the processing

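Over the members' 122 gene results and 18 alternatives, 2022 of 2189 values kept direction and side of the threshold, 132 lost and 7 gained the call, and 28 reversed sign. Without the intensity trend, called members numbered 10 at 3 h, 0 from 3 to 6 h, 0 from 6 to 12 h and 9 from 3 to 12 h, with 7 sterol enzymes, 2 fatty acid enzymes and 0 regulators at 3 h, 1 regulator at 12 h, and 611 of all genes at 3 h. From 3 to 6 h the members' count was 2 without the filter and 1 with only the 2 times fitted. From 6 to 12 h it was 2 with arrays scaled to the same median, 3 after quantile normalization and 3 with the 50th percentile filter. Scaling to the same median gave 0 regulators at 3 h. The mean of all probe sets gave 1 regulator at 6 h and at 12 h, and the stricter filter 1 transport gene at both times. The cause was not tested, except that the stricter filter removed Abca1.

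Whether the replicate numbers pair the arrays was not tested. Deviations of arrays with the same number had correlations of -0.0108 to 0.122 over 6 pairs of times. With the replicate block 8 members were called from 3 to 6 h, 6 from 6 to 12 h and 19 from 3 to 12 h, against 4, 1 and 15 without it. Of all genes 924 were higher and 426 lower at 3 h with the block, against 742 and 306. Leaving out each array in turn gave 10 to 18 members at 3 h, 21 to 24 at 6 h, 19 to 24 at 12 h, 1 to 6 from 3 to 6 h, 1 to 5 from 6 to 12 h and 8 to 19 from 3 to 12 h. It gave 7 to 12, 12 to 14 and 12 to 14 sterol enzymes at the 3 times, 2 to 4, 5 to 6 and 4 to 6 fatty acid enzymes, and 0 to 1, 2 and 0 to 2 regulators. The ranges for all genes were 453 to 1280, 1377 to 2335 and 2353 to 3551.

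Reversed values were all uncalled in both settings, except that of Ggps1, which was called at 12 h and had -0.077 over the mean of all probe sets. With arrays scaled to the same median, 3 h changes were -0.034 for Fdps, -0.039 for Nsdhl, -0.018 for Srebf1, -0.12 for Acaca, -0.075 for Fads1, -0.059 for Fads2 and -0.023 for Npc2, which had -0.015 at 6 h. Quantile normalization gave 0.023 for Srebf1 and 0.057 for Fads1 at 6 h and -0.13 for Acaca at 3 h, and the mean of all probe sets 0.075 for Insig2 and -0.011 for Npc2 at 12 h. Leaving out 1 array gave ranges across 0 at 3 h for Tm7sf2 (-0.18 to 0.13), Ebp (-0.13 to 0.040), Srebf1 (-0.041 to 0.27), Acaca (-0.18 to 0.19), Fads1 (-0.041 to 0.16), Fads2 (-0.011 to 0.16) and Npc1 (-0.37 to 0.27), at 6 h for Nsdhl (-0.0086 to 0.64) and Srebf1 (-0.18 to 0.13), and at 12 h for Mvk (-0.018 to 0.45) and Nsdhl (-0.061 to 0.25). Same-median scaling put the median of all genes at -0.07 at 3 h and -0.04 at 6 h, against 0.06 and 0.07 as deposited, with 462 genes higher and 645 lower at 3 h, against 742 and 306, and 1054 and 1199 at 6 h, against 1455 and 844.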
